A study of Homo sapiens with 6 samples.

Results

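The APOB locus was examined in ChIP-seq (chromatin immunoprecipitation followed by sequencing) of METTL14 in HepG2, a human hepatocellular carcinoma line. Its members were the islands, runs of enriched windows called with SICER, that overlapped chromosome 2 from 21200000 to 21300000 on hg19. APOB lies inside this window on the minus strand, from 21224301 to 21266945, so transcription starts at the higher coordinate. The locus held 15 of the 67802 candidate islands in DRB-treated cells and 2 of the 38696 in untreated cells. It was singled out for the level of METTL14 in untreated cells, so the enrichments below are descriptions and carry no test.

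APOB encodes apolipoprotein B, the structural protein around which the liver builds very-low-density lipoprotein and which remains on low-density lipoprotein. It is a long gene that hepatocytes transcribe heavily, and HepG2 cells secrete its product. METTL14 is the partner that helps METTL3 bind RNA in the complex that writes N6-methyladenosine, a mark placed largely while transcripts are being made. DRB inhibits CDK9, the kinase that releases RNA polymerase II into productive elongation, so during treatment few new polymerases travel far into a long gene.

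The treated cells received 100 µM DRB for 3 h and gave 1 immunoprecipitated (IP) library and 1 input library. The untreated cells gave 2 IP and 2 input libraries. Both conditions came from HepG2 cells transduced with a PLJM1 lentiviral vector that carried METTL14 with HA at its N terminus and EGFP at its C terminus, selected with puromycin and sorted for high GFP. The protein measured was therefore the overexpressed, tagged one, and the anti-HA antibody was used in every IP.

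The deposited tables hold 1 IP and 1 input read count per island and condition, so the untreated replicates cannot be separated. Nothing in the labels says whether those replicates were separate cultures. Errors between replicates are therefore not known, and the exact 95% intervals in parentheses cover counting error only. The fold is the ratio of IP to input reads, multiplied by a constant of each table, 0.861 with DRB and 1.07 untreated, and each fold per island is the authors' value. Outside the mitochondrial genome the DRB islands held 1977419 IP and 1330018 input reads, against 14495388 IP and 14661480 input reads in untreated cells, so DRB values are the less precise ones. With mitochondrial islands, the counts were 2411436 IP and 2726149 input reads with DRB, and 15339872 and 16034656 untreated. Mitochondrial islands thus held a larger share of input than of IP reads, most of all with DRB. The effect of this imbalance on the DRB folds was not tested. ChIP reads do not measure APOB expression, and fewer bound molecules per cell cannot be told apart from fewer cells with bound METTL14.

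In DRB-treated cells APOB was covered by many narrow islands in which IP and input were nearly balanced under the authors' scaling, and in untreated cells by 1 broad domain in which IP exceeded input. Over all candidates, too, DRB islands were narrower, with a median width of 2 kb against 4.8 kb untreated. Their median input density was also lower, 7 against 52.3 reads per kb. The DRB islands of the locus had a median width of 3.2 kb. The part of depth in island number and width was not tested. The DRB islands over the untreated domain numbered 12 and together held 638 IP reads and 543 input reads, a 1.01-fold value (0.901 to 1.14). The untreated domain ran from 21220801 to 21280200 and held 6065 IP reads and 4760 input reads, a 1.37-fold value (1.32 to 1.42). DRB had the lower fold, and the 2 intervals, which cover counting error only, did not overlap. This is no test of a DRB effect. The locus was chosen for its untreated fold, which favors this order, and each fold uses the constant of its own table.

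The untreated domain reached past both ends of the gene. It was 59.4 kb wide and covered all of APOB, which is 42.6 kb long. It began 13.3 kb before the start site and ended 3.5 kb past the end of the gene. The second untreated island of the window began 1.0 kb beyond the domain's edge on the start-site side, at 21281201, and reached 21302600. It held 1443 IP and 1467 input reads, a 1.06-fold value (0.981 to 1.14), and the authors' false discovery rate (FDR) for it was 0.0605. The difference in fold between these neighbours, 1.0 kb apart, was not tested either. On the other side, past the end of the gene, no untreated candidate island lay within 127 kb of the domain, where DRB gave 2 islands.

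No DRB island of the locus and 1 of the 2 untreated islands passed the authors' threshold, an FDR under 1e-04. Over all candidate islands 4.76% passed with DRB and 5.10% untreated. The authors' FDR of the untreated domain was 2.11e-115, and the lowest FDR among the 15 DRB islands was 0.00364. Because the locus was chosen on this contrast, nothing is read from these counts.

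**Figure D1:**
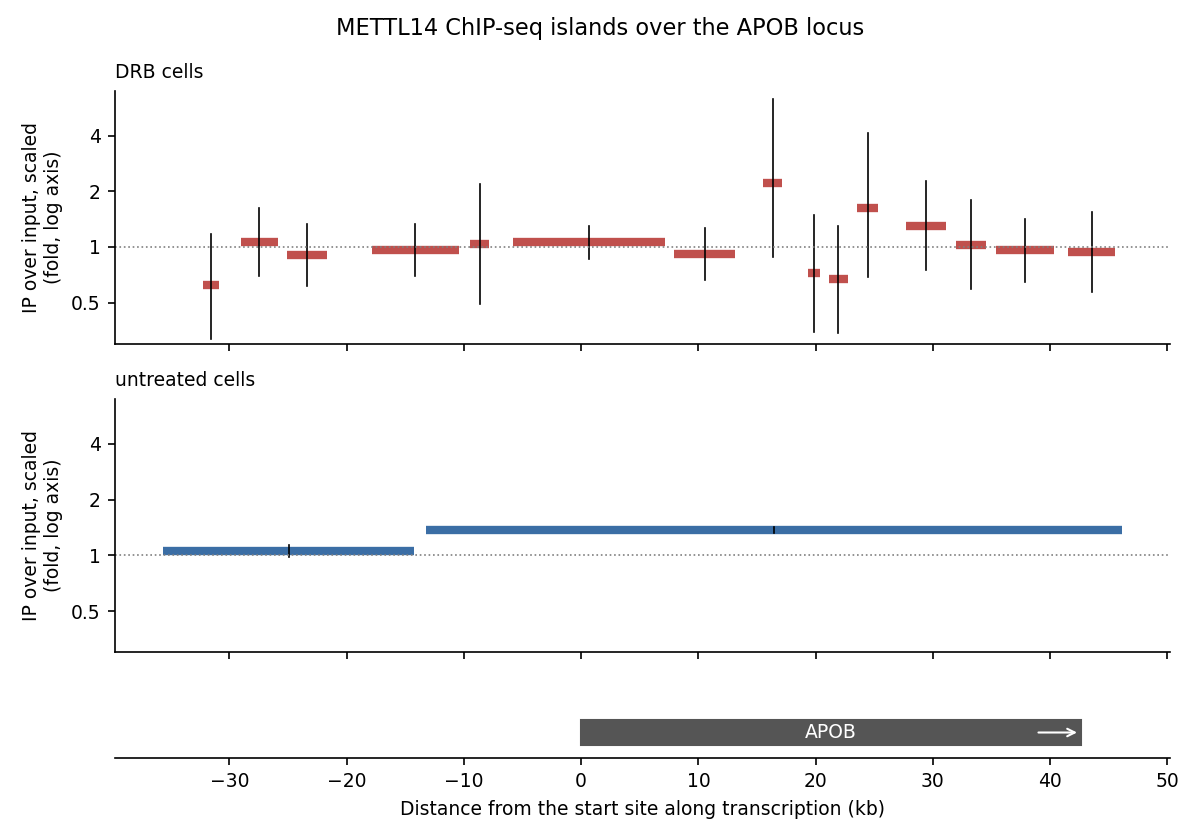
Islands of the locus in DRB-treated (top) and untreated (bottom) cells, as horizontal bars at their fold on a log axis, against distance from the APOB start site in kb along transcription; vertical lines are exact 95% intervals and the grey box is the gene. The DRB islands lie around 1 with wide intervals, while the untreated domain lies at 1.37 over the whole gene and its neighbour at 1.06.

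The 15 DRB islands ranged from 1.0 to 13.0 kb in width and from 0.620 to 2.21 in fold, with a median fold of 0.961. In 8 of them the fold was below 1 and in 7 above it, and none had an interval that left out 1. The interval of 9 of the 15 also contained 1.37, the fold of the untreated domain, so these 9 islands could not separate the 2 levels at their depth. The islands held between 16 and 220 IP reads and between 7 and 179 input reads.

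The widest DRB island lay over the APOB start site, from 21259801 to 21272800. It reached from 5.86 kb before the start site to 7.14 kb into the gene and held 220 IP reads and 179 input reads, a 1.06-fold value (0.864 to 1.30). It was also the island of highest IP density but one, with 16.9 IP reads per kb and 13.8 input reads per kb. Reads of both kinds were dense there, and their ratio was close to that of the locus as a whole.

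The island at 21253801 to 21259000, next along the gene, had 83 IP and 78 input reads, a 0.916-fold value (0.664 to 1.26).

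Inside the gene body the DRB folds varied most among the narrowest islands. The highest was at 21249801 to 21251400, from 15.5 kb after the start site, with 18 IP reads and 7 input reads, a 2.21-fold value (0.882 to 6.27). The next was at 21241601 to 21243400, with 17 IP reads and 9 input reads, a 1.63-fold value (0.685 to 4.14). Between them lay 2 islands of low fold. That at 21244201 to 21245800 had 18 IP and 23 input reads, a 0.674-fold value (0.343 to 1.31), and that at 21246601 to 21247600 had 16 IP and 19 input reads, a 0.725-fold value (0.349 to 1.49). These 4 islands were alike in IP reads and differed in input reads, and their intervals overlapped.

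Toward the end of the gene the DRB islands were wider and their folds closer to 1. The island at 21235801 to 21239200 had 36 IP and 24 input reads, a 1.29-fold value (0.749 to 2.26). That at 21232401 to 21235000 had 31 IP and 26 input reads, a 1.03-fold value (0.590 to 1.80). The island at 21226601 to 21231600 had 59 IP and 53 input reads, a 0.958-fold value (0.650 to 1.42). The island over the end of the gene, at 21221401 to 21225400, had 36 IP and 33 input reads, a 0.939-fold value (0.569 to 1.55). Before the start site, 5 DRB islands had their midpoints. The lowest fold of the locus, 0.620 (0.319 to 1.18), was farthest from the gene, at 21297801 to 21299200. The others were at 21274801 to 21276400 with a fold of 1.03, at 21277401 to 21284800 with 0.961, at 21288601 to 21292000 with 0.908 and at 21292801 to 21296000 with 1.06.

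Summed by position along the gene, the DRB reads gave no segment whose interval left out 1. Islands were assigned by their midpoint. Before the start site, 5 islands gave 233 IP and 215 input reads, 0.933-fold (0.772 to 1.13). Within the gene, split into 4 equal segments numbered from the start site, segment 1 gave 303 IP and 257 input reads, 1.01-fold (0.857 to 1.20). Its 2 islands covered 18.2 kb and also reached before the start site and into segment 2. Segment 2 held 34 IP and 26 input reads, 1.13-fold (0.656 to 1.95); when every island that reached into it was counted, it held 135 IP and 127 input reads, 0.915-fold (0.713 to 1.18). Segment 3 gave 71 IP and 56 input reads, 1.09-fold (0.758 to 1.58). Segment 4 gave 90 IP and 79 input reads, 0.981-fold (0.717 to 1.34). IP density was highest in segment 1, at 16.6 reads per kb of island, and lowest past the end of the gene, at 9.0 reads per kb. Input density in these regions was 14.1 and 8.25 reads per kb. Untreated cells allow no such profile, because 1 island covers every segment of the gene.

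Over the whole window, DRB gave 767 IP and 666 input reads, a 0.991-fold value (0.892 to 1.10), and untreated cells 7508 IP and 6227 input reads, a 1.29-fold value (1.25 to 1.34). Another scaling used all reads of nuclear islands, a constant of 0.673 with DRB, which sets the sum of those islands to 1. The DRB value was then 0.775 (0.697 to 0.861) and the untreated value 1.22 (1.18 to 1.26). These values place the locus below that sum with DRB and above it untreated. They cannot show whether IP was below input, because the islands were themselves called as enriched. The balance of IP and input with DRB is thus a value under the deposited constant only. The DRB fold was 0.766 times the untreated one (0.686 to 0.856). Over the untreated domain alone the ratio was 0.740 (0.655 to 0.836). Had the fold there been 1.37 with DRB as well, the 543 DRB input reads would have stood beside 863 IP reads, where 638 were observed. The choice of the locus on its untreated fold favors a ratio below 1. The islands were also called separately and differ in extent: DRB islands covered 73.4% of the untreated domain and 71.4% of APOB.

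The islands of the 1 Mb on each side, which serve as a local baseline, had a higher fold than the locus with DRB and a lower fold than the locus in untreated cells. With DRB, the locus stood at 0.991 and the 162 flanking islands, with 5378 IP and 3811 input reads, at 1.21 (1.17 to 1.27). In untreated cells, the locus stood at 1.29 and the 96 flanking islands, with 42317 IP and 41859 input reads, at 1.08 (1.07 to 1.10). The locus was therefore at 0.816 times its flanks with DRB (0.729 to 0.914) and at 1.19 times its flanks in untreated cells (1.15 to 1.24). The untreated ratio was nearly the same against the flank beyond the start site, 1.20 (1.15 to 1.25), and the flank beyond the end of the gene, 1.19 (1.15 to 1.24). The DRB ratio was 0.732 (0.641 to 0.835) against the first of these and 0.852 (0.758 to 0.957) against the second.

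Single islands showed the same order. Of the 15 DRB islands of the locus, 13 had a fold below the flanking median of 1.32 (quartiles 1.09 and 1.62), and 53.3% had a fold below 1, against 16.7% of the flanking DRB islands. In untreated cells the domain's fold was above that of 93 of the 96 flanking islands, whose median was 1.07 (quartiles 1.01 and 1.15). The adjacent untreated island, at 1.06, was below that median. Over all candidates the median fold was 1.51 with DRB and 1.08 untreated, and over chromosome 2 it was 1.43 and 1.07.

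**Figure D2:**
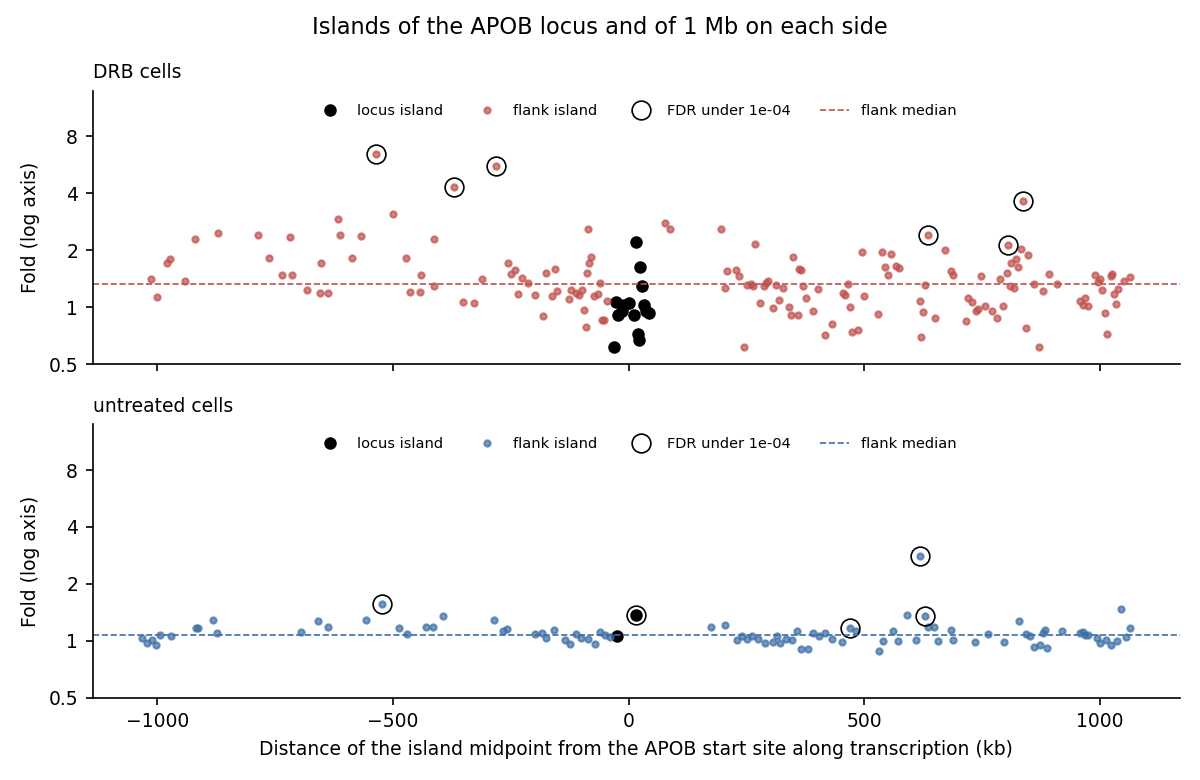
Fold (log axis) of each island of the locus (black) and of 1 Mb on each side (color) against the distance of its midpoint from the APOB start site in kb, with DRB (top) and untreated (bottom); rings mark islands with an FDR under 1e-04 and dashed lines the flank medians of 1.32 and 1.07. The locus islands lie mostly below the line with DRB, and the domain lies above it in untreated cells.

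The DRB baseline depended on island width, and the locus lacked the narrowest islands. Flanking DRB islands under 1 kb had a summed fold of 1.75 (1.42 to 2.19), and the locus had none of that width. From 1 to under 2 kb, the locus had 0.922 (0.694 to 1.23) and the flanks 1.34 (1.20 to 1.50). From 2 to under 4 kb, the locus had 1.04 (0.828 to 1.30) and the flanks 1.26 (1.18 to 1.34). At 4 kb or more, the locus had 0.992 (0.868 to 1.13) and the flanks 1.08 (1.01 to 1.15). Among these widest islands the locus was at 0.921 times its flanks, with an interval of 0.793 to 1.07 that contained 1. The part of island width and calling in the lower DRB fold of the locus was not tested beyond these values.

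**Figure D3:**
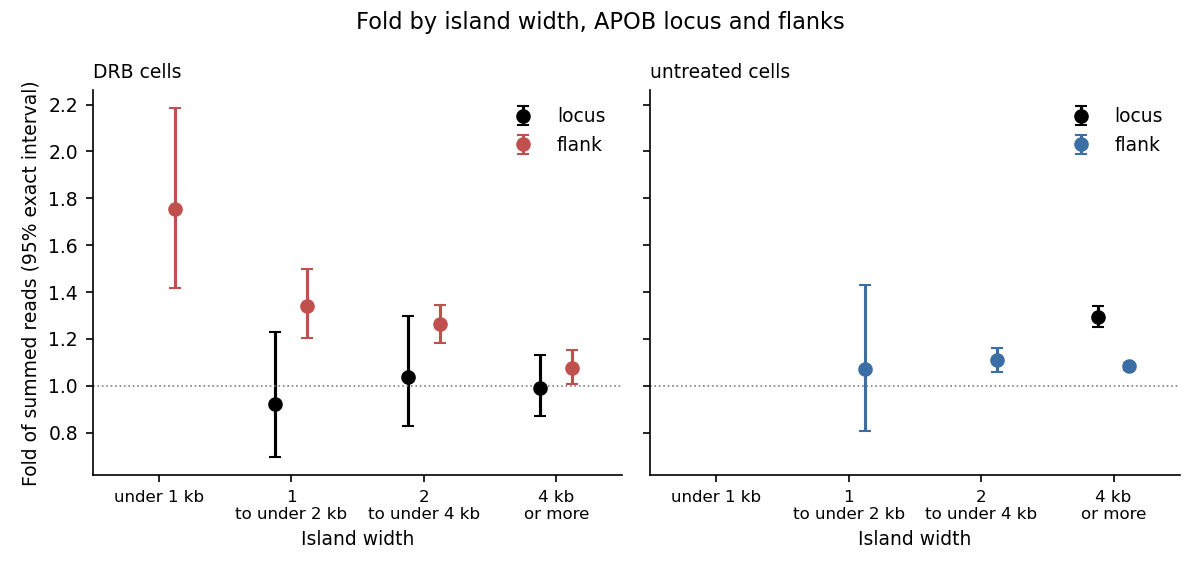
Fold of summed reads with exact 95% intervals by island width, for the locus (black) and the flanks (color), with DRB (left) and untreated (right). With DRB the flank values come down from 1.75 in the narrowest class to 1.08 in the widest, beside the locus at 0.992, while in untreated cells the locus is at 1.29 and the flanks at 1.08 in the widest class.

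Input reads per kb of called island were also higher in the locus than in its flanks, in both conditions alike. Reads outside islands are not in these counts. Input density in the locus was 11.9 reads per kb and in the flanks 8.61 reads per kb with DRB, a ratio of 1.38. In untreated cells it was 77.1 reads per kb in the locus and 57.2 in the flanks, a ratio of 1.35. IP density did not keep such a constant ratio: the locus over its flanks was at 1.12 with DRB, from 13.6 and 12.2 IP reads per kb, and at 1.61 in untreated cells, from 92.9 and 57.9. Untreated IP density was 6.81 times the DRB one in the locus and 4.76 times in the flanks, while untreated input density was 6.50 times the DRB one in the locus and 6.64 times in the flanks. Islands also filled more of the window than of the flanks, with 56.2% of the window and 22.1% of the flanks with DRB, and 78.2% and 36.4% untreated. The part of local input depth in the fold was not tested.

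At the borders of the window the values ran as follows. The nearest DRB islands outside it were at 21189401 to 21190800, with 13 IP and 4 input reads, 2.80-fold (0.864 to 11.8), and at 21308801 to 21317600, with 97 IP and 77 input reads, 1.08-fold (0.796 to 1.48). The nearest untreated islands outside it were at 21089601 to 21093800, 1.18-fold (0.975 to 1.43), and at 21303401 to 21307800, 1.05-fold (0.870 to 1.27). None of these 4 passed the threshold.

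Significant islands were present in the flanks at about the share found over all candidates, 6 of 162 (3.70%) with DRB and 4 of 96 (4.17%) untreated. The 3 highest DRB folds lay beyond the start site, between 281 and 536 kb from the gene, on at most 20 IP and 4 input reads each. They were 6.46-fold (1.50 to 58.2) at 21802801 to 21803600, 5.59-fold (1.27 to 51.1) at 21548201 to 21548800 and 4.30-fold (1.44 to 17.3) at 21637001 to 21637400. Past the end of the gene, the significant DRB islands of highest fold were at 20429801 to 20430800, 3.66-fold (1.19 to 14.9), and at 20631601 to 20633800, 2.43-fold (1.19 to 5.35). The highest untreated fold was 570 kb past the end of the gene, at 20642601 to 20654000, where 2229 IP and 854 input reads gave 2.80-fold (2.59 to 3.03). It exceeded the APOB domain in fold, and the DRB islands over it, with 126 IP and 115 input reads, were at 0.943-fold (0.727 to 1.23). The second, at 21786001 to 21792000, was at 1.57-fold (1.31 to 1.89) and had no DRB island over it. The third, at 20221201 to 20224000, was at 1.48-fold (1.14 to 1.93) and did not pass the threshold. The other significant untreated islands were at 20636201 to 20640200, 1.35-fold (1.15 to 1.58), and at 20792001 to 20803600, 1.17-fold (1.06 to 1.28). The APOB domain was thus 1 of 5 significant untreated islands in the 2.1 Mb examined, and the widest of them, the other widths being 4.0 to 11.6 kb.

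In RefSeq's gene table, whose assembly is GRCh38.p14 and not hg19, the protein-coding neighbours of APOB on chromosome 2 are LDAH, which encodes a lipid droplet-associated hydrolase, and TDRD15, a Tudor domain gene. Their positions on hg19 were not used, so the flanking islands are given by position only.

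Among untreated islands the APOB domain combined great width with a fold that most wide islands lacked. The IP exceeded the scaled input by 958 reads, the sixth highest such excess among the 38696 islands. Of 191 islands of at least 50 kb, it had the second highest fold, the next below it reaching 1.12 and the median being 1.01. Of 1246 islands of at least 20 kb, it ranked 5 by fold. By fold alone it ranked 1977 among all islands, of which 94.9% were lower.

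The pattern of the untreated fold and the DRB fold was set beside that of the other wide islands. All 76 significant untreated islands of at least 20 kb had at least 1 DRB island over them. The DRB over untreated ratio was 0.740 at APOB and had a median of 1.01 in the other 75, of which 7 had a lower ratio than APOB. Most of those 75 were weaker than APOB in untreated cells, with a median untreated fold of 1.13 against 1.37. The DRB fold itself, 1.01 at APOB, was lower in 26 of the 75, whose median was 1.13.

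The 5 islands nearest to the APOB domain in both log2 folds were named as those of most similar pattern. The nearest was on chromosome 6 at 26038601 to 26069200, with 0.938-fold with DRB (0.800 to 1.10) and 1.30-fold untreated (1.23 to 1.38). Next came chromosome 20 at 47875001 to 47908400, with 0.966-fold with DRB (0.819 to 1.14) and 1.23-fold untreated (1.17 to 1.29). The remaining 3 lay on chromosome 7 at 26218801 to 26246800, chromosome 6 at 114175801 to 114198800 and chromosome 1 at 35638601 to 35660200, with DRB folds of 0.968, 0.968 and 1.10 and untreated folds of 1.23, 1.23 and 1.25. All 5 had a lower untreated fold than APOB and are narrower, from 21.6 to 33.4 kb, and likeness was measured over the 2 conditions only. Their DRB over untreated ratios were 0.720, 0.785, 0.788, 0.790 and 0.882, in the order named. Because likeness used both folds, ratios near that of APOB follow from the choice.

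**Figure D4:**
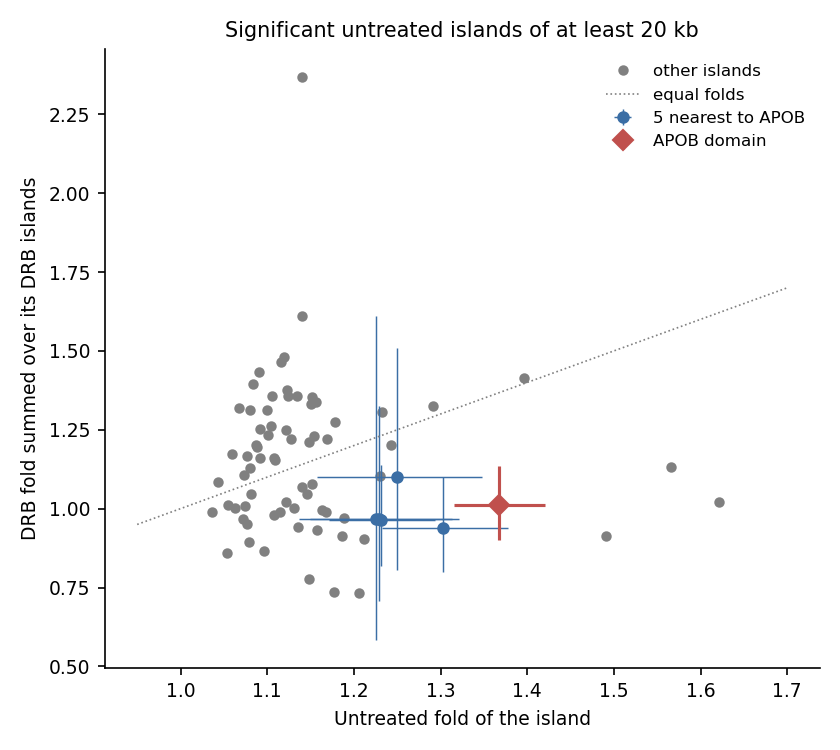
DRB fold, summed over the DRB islands that overlap each untreated island, against the untreated fold, for the 76 significant untreated islands of at least 20 kb; the APOB domain is a diamond, lines are exact 95% intervals, and the dotted line marks equal folds. APOB lies below that line at 1.01 with DRB and 1.37 untreated, to the right of the 5 islands nearest to it.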

How the data were processed

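Per the submitters' processing notes, the tools were SICER, Bowtie 1.1.2 and FastQC 0.11.5, and the build was hg19. The settings of SICER and the joining of the untreated replicates are not given in the sources at hand. The files have no headers, so columns were identified from their values. The deposited counts are whole reads per island for IP and input, not normalized. The deposited ratio (fold) is IP over input reads times a constant. The deposited p-value and FDR compare IP with scaled input, and the significant lists held exactly the islands with an FDR under 1e-04. Positions were made 1-based.

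Reads were summed over islands that overlapped each region by at least 1 bp. Fold intervals come from exact 95% Clopper-Pearson limits on the share of IP reads. Ratios of folds have exact conditional intervals, except the ratio of locus-over-flank ratios, whose interval is normal on the log scale. Flanking islands exclude those of the locus. PCR reads are not independent molecules. The named islands were all those of the locus, and in the flanks the 3 of highest fold and up to 5 significant ones. Among wide islands, only the 5 nearest in both log2 folds were named, and those of higher untreated fold than APOB were not. Members, lists and rules were chosen with earlier results of these data known. Tools were matplotlib 3.10.9, SciPy 1.17.1, pandas 2.3.3, numpy 2.4.6 and Python 3.11.15.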

Additional observations from a re-analysis of the deposited data

Results flagged for a closer look

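The APOB locus and its flanks differed in opposite directions in the 2 conditions. The locus was at 0.816 times the fold of its flanks with DRB and at 1.19 times in untreated cells. Among islands of at least 4 kb the DRB ratio was 0.921 with an interval of 0.793 to 1.07, which contains 1, so the DRB direction does not hold there beyond counting error. Over islands of all widths, the DRB ratio was 0.684 times the untreated one (0.608 to 0.770, counting error only). With 1 table per condition the difference was not tested, and the locus had been chosen for its untreated fold, which favors a value below 1.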

How the results depend on the processing

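Of 42 alternatives, 33 left the value inside the interval of the reported one (for counts, within 1.5 times), 9 moved it, and in none did a fold ratio whose interval left out 1 change sides. Scaling by all reads of nuclear islands gave locus folds of 0.775 with DRB (0.697 to 0.861, which leaves out 1) and 1.22 untreated, and a DRB over untreated ratio of 0.635. These folds are relative to the sum of the called nuclear islands, which this scaling sets to 1. Taking the islands over the gene raised the untreated locus fold to 1.37 and its ratio to the flanks to 1.26, and the domain alone also gave 1.26, because the adjacent island drops out. With islands of at least 4 kb on both sides, the DRB locus was at 0.921 times its flanks (0.793 to 1.07), and the ratio of the 2 conditions' locus-over-flank values was 0.771 (0.662 to 0.896). Over the other flank settings that ratio lay between 0.612 and 0.715. At a 10 times lower FDR, 7 of the 11 significant islands in the locus and flanks of both conditions remained. The comparisons at 4 kb, at 2 kb in both locus and flanks, on the domain, without the strongest flanking islands and without the island over the start site were chosen after seeing the data. No paired analysis was possible because the deposited tables join the untreated replicates and DRB had 1. Depth limits the single DRB islands of the locus, which held at most 220 IP reads.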
